A study of Mus musculus with 4 samples.

Results

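Genes of prostaglandin and leukotriene synthesis and sensing were followed in CD11c+ cells of mouse mesenteric lymph nodes (MLN) cultured with or without an agonist of Ffar2, which senses acetate and other short-chain fatty acids at the cell surface. The 10 genes (Ptgs1, Ptgs2, Ptges, Ptger2, Ptger4, Alox5, Alox5ap, Lta4h, Ltb4r1 and Alox15) were found by symbol, and all 10 had a row among the 55450 gene rows of the count files. The agonist group had 2 libraries of cells kept for 6 h with 10 µM of the agonist, a compound the labels do not name further. The control group had 2 libraries of cells kept for 6 h with water in its place. All cells came from wild-type C57BL/6J mice, whose age the labels do not give. Per the labels' protocols, the CD11c+ cells of each pool of 2 nodes were enriched with magnetic beads and divided between an agonist well and a control well. The titles number the libraries 2 and 3 in both groups, and these numbers are used here as pool 2 and pool 3. CD11c is an integrin of dendritic cells that some other leukocytes also carry, so the wells can hold other node cells. With 2 libraries a group, p-values measure the spread between these pools and wells only. In such bulk RNA, fewer cells of a type and less RNA per cell cannot be told apart.

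Both pathways start from arachidonic acid, a fatty acid cut out of membrane lipids by phospholipases. The cyclooxygenases Ptgs1 and Ptgs2 turn it into a precursor from which Ptges makes prostaglandin E2, and the receptors encoded by Ptger2 and Ptger4 signal its presence by raising cyclic AMP. The lipoxygenase Alox5, with its membrane partner Alox5ap, makes leukotriene A4, Lta4h converts that to leukotriene B4, and Ltb4r1 is the high-affinity receptor for leukotriene B4. Alox15 oxygenates the same fatty acid at other positions. Prostaglandin E2 is known for shaping the maturation and migration of dendritic cells, and leukotriene B4 for attracting leukocytes.

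Reads assigned to genes numbered 43238375 to 59902172 a library. Levels are CPM, read counts scaled to library size with the trimmed mean of M-values (TMM), and levels between genes are CPM per kb of merged exons. The control library of pool 2 stood apart: of 2001 genes averaging at least 100 CPM, 37 lay more than 1 log2 unit below all the other libraries there, against 0 to 2 in each of the other libraries. In that pool 99 of the 2001 genes were more than 1 log2 unit higher with agonist than in the control, and in pool 3 none (0) were. Of the 99, 88 were lowest in the control library and highest in the agonist library of pool 2. That agonist library lay more than 1 log2 unit above all the others in 9 genes, against 0 to 1 in each of the other libraries. Xist was read in pool 2 only (21194 and 17776 reads, agonist and control) and the Y-linked Ddx3y in pool 3 only (21461 and 18752 reads), so differences between the pools cannot be told apart from the sex of the mice. The defining markers of conventional dendritic cells were read in all libraries, and Itgax, the gene of CD11c, had 178 and 95.4 CPM in the agonist wells of pools 2 and 3, against 189 and 105 CPM in their control wells. T cell and B cell markers were also present, with summed levels over 4 genes each of 96.5 to 338 and 262 to 583 CPM.

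The sequences before the RefSeq starts of Ptgs2, Ptges and Ptgs1 are shown because these genes encode the cyclooxygenases and a synthase of prostaglandin E2. Of these genes, Ptgs2 and Ptges stood lower in both wells of pool 3, as did 25.2% of all tested genes, and Ptgs1 did not. The sequences are the 250 bases upstream of the RefSeq start on GRCm38.p6, read 5′ to 3′ on the gene's strand. Capitals mark matches to a GC box (GGGCGG) or a C/EBP site (TTGCGCAA) on either strand. The Ptges window lies inside the GENCODE span of the gene (30889471 to 30929863), whose start is further upstream. The 8 of 10 genes with an entry in the promoter table were searched.
Ptgs2, chr1:150099781-150100030, plus strand: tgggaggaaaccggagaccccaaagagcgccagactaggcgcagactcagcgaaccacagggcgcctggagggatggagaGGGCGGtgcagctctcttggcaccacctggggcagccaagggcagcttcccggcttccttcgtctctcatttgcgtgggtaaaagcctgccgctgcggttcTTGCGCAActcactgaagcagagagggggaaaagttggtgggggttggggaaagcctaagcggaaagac
Ptges, chr2:30903298-30903547, minus strand: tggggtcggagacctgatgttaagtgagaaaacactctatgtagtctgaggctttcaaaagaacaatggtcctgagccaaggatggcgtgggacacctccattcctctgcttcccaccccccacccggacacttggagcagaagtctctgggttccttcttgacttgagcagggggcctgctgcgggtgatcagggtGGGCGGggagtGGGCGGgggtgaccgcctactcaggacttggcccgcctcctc
Ptgs1, chr2:36230176-36230425, plus strand: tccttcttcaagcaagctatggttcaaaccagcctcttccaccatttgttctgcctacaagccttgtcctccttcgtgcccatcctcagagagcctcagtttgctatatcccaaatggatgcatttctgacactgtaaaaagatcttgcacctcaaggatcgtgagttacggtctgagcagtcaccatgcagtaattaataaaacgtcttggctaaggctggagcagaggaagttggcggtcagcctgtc
The Ptgs2 sequence held a GC box and, at -69 to -62 from the start, the C/EBP letters TTGCGCAA, a motif added to the search after the sequence had been read. That motif occurred in 0.2% of 32851 promoters of the same length, and in no other of the 8 searched. The Ptges sequence held 2 GC boxes, at -53 to -48 and -42 to -37, and the Ptgs1 sequence held no match. GC boxes were also in the windows of Ptger4, Alox5 and Ltb4r1, while those of Lta4h and Ptger2 held no match. Of these genes, Ptger4, Ltb4r1 and Lta4h also stood lower in both wells of pool 3, and Alox5 and Ptger2 did not. A GC box was in 32.7% of all promoters. Searches on both strands for TATAAA (12.4% of all promoters), TGACG (17.8%), TGACGTCA (1.5%), CACGTG (6.0%) and the NF-kB motif (7.3%) found no match in any of the 8 windows, which says only that these letters are not in these stretches. Bases after the RefSeq start were not searched. These matches are descriptions of the sequence and were not linked to any measured binding.

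Per kb, Lta4h was the highest of the 10 genes and Ltb4r1 and Alox5 had the lowest means. Lta4h averaged 29.1 CPM per kb (24.7 to 37.1 over the 4 libraries), which placed it at rank 1660 of the 55450 gene rows. Ptgs2 averaged 12.5 CPM per kb (5.96 to 20.5) and Alox5ap 7.86 (6.14 to 9.60), and their ranges overlapped. Ptger4 at 2.65 CPM per kb and Ptgs1 at 2.27 also overlapped, as did Ptger2 at 0.970 with Ptges at 0.687, and Ptges with Alox15 at 0.379. Ltb4r1 averaged 0.112 and Alox5 0.104 CPM per kb, and the ranges of Alox15, Ltb4r1 and Alox5 overlapped. The steps from Lta4h to Ptgs2, from Alox5ap to Ptger4 and from Ptgs1 to Ptger2 were wider than the spread over libraries. The converting enzyme of leukotriene B4 synthesis and the 5-lipoxygenase partner were well read in these cells, while the lipoxygenase itself and the leukotriene B4 receptor had at most 48 and 16 reads in a library.

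**Figure D1:**
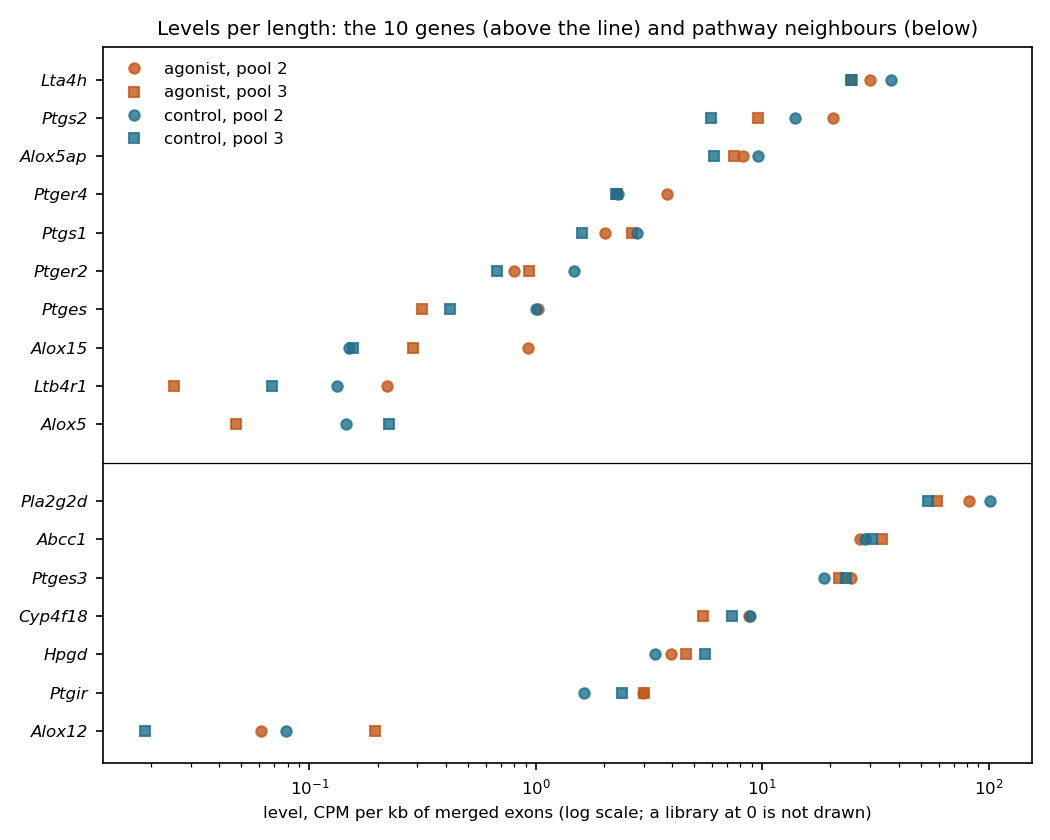
Level of each gene in each library, in CPM per kb of merged exons on a log scale, with the 10 genes above the line and below it the highest gene of each of 7 groups of pathway neighbours. Lta4h, at 24.7 to 37.1, sits above the other 9 genes, and Alox5 is not drawn for the agonist library of pool 2, where it had 0 reads.

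Across all genes, edgeR's quasi-likelihood test of agonist against control called 0.00% of 18297 tested genes at an adjusted p of 0.05. At an unadjusted p under 0.05 it had 289 genes, or 1.58%, while limma-voom called 0 genes and DESeq2 called 7. Of the 10 genes, 9 passed the filter on low counts, 0 of 9 were called by any of these tools, and 0 of 9 had an unadjusted p under 0.05 in edgeR. Ltb4r1 did not pass the filter, and Alox5 passed through its control libraries alone. The median log2 fold change of the 9 genes was -0.0039, beside -0.05 over all tested genes. Within pools, 3 of 9 were higher with agonist in both (Ptgs2, Ptger4 and Alox15), beside 21.0% of all tested genes. Ptger4 counts as higher in pool 3 on only 15.1 CPM with agonist against 15.0 CPM in the control. Only Alox5 was lower in both, beside 27.8%, and the other 5 went in opposite directions in the pools, beside 50.6%. The groups did not overlap in 2 of 9 genes, Alox15 and Alox5, beside 25.0% of all tested genes.

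**Figure D2:**
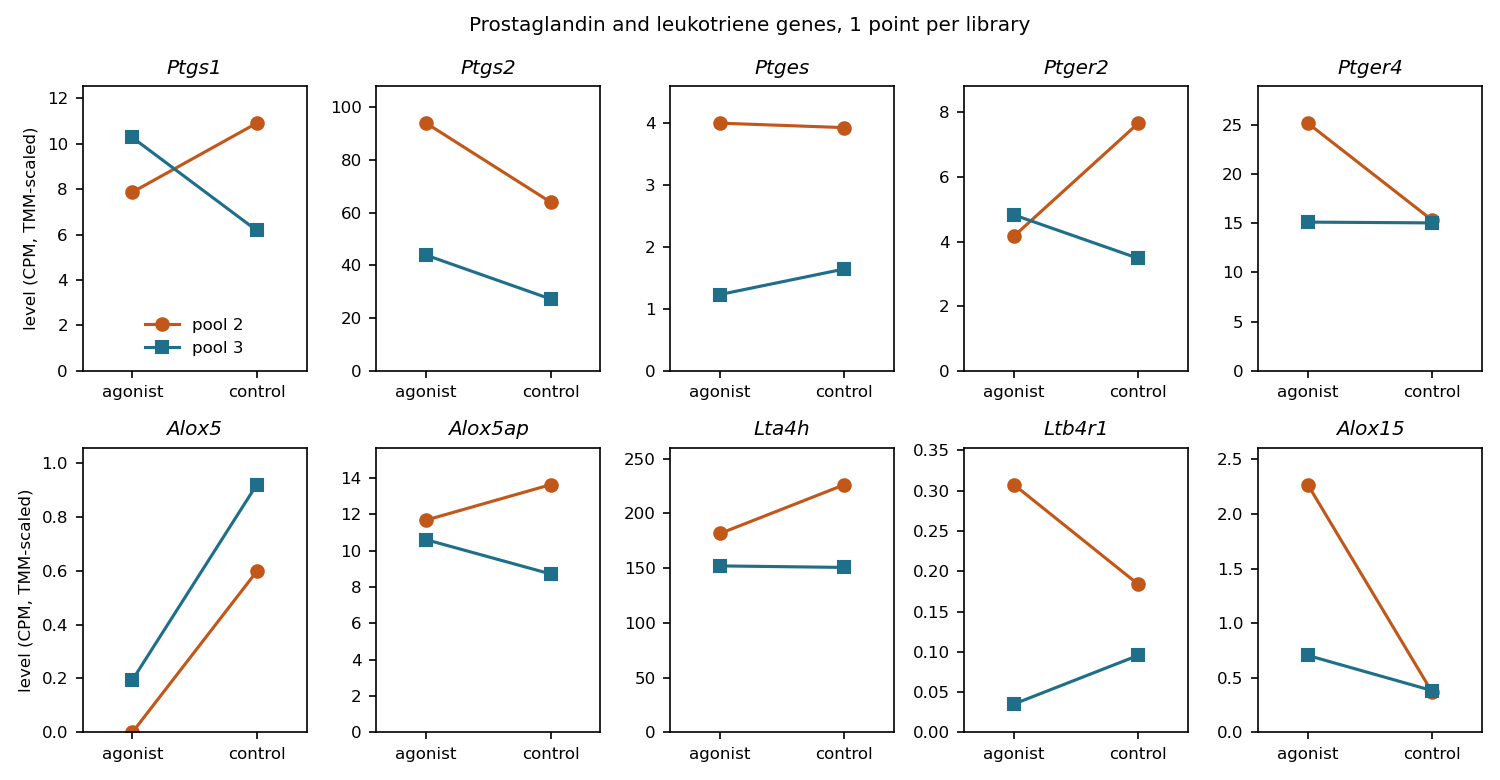
Level of each of the 10 genes in each library (CPM, TMM-scaled, linear axes from 0), with agonist left, control right and a line joining the wells of 1 pool. Ptgs2 stands higher with agonist in both pools and lower in pool 3 in both wells, and the lines of Ptgs1 and Ptger2 cross.

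Ptgs2, the inducible cyclooxygenase (ENSMUSG00000032487.8, chromosome 1, 150100031 to 150108227, plus strand, GRCm38), had a higher level than Ptgs1 and Ptges in each library. It had 4889 and 2492 reads in the agonist wells of pools 2 and 3, against 2789 and 1426 reads in their control wells. Scaled, these were 94.0 and 43.9 CPM with agonist and 64.0 and 27.3 CPM in the control. The agonist well was the higher in each pool, but the groups overlapped, since the control well of pool 2 lay above the agonist well of pool 3. Within pools the log2 ratio was 0.55 in pool 2 (0.49 to 0.62, a 95% exact binomial interval that covers counting error only) and 0.69 in pool 3 (0.59 to 0.78). Ratios at least as high were held by 23.0% of tested genes in pool 2 and 8.88% in pool 3. The fitted log2 fold change was 0.59 (SE 0.53, 95% interval -0.69 to 1.88), with an unadjusted p of 0.303 and an edgeR adjusted p of 0.9999. Adding the pool as a block gave 0.62 with an SE of 0.25, an unadjusted p of 0.0355 and an edgeR adjusted p of 0.9998. In that fit 3.53% of all genes and 2 of the 9, Ptgs2 and Alox5, had an unadjusted p under 0.05, and the adjusted call was made for 0.00547% of all genes and 0 of the 9. Without the block, the Ptgs2 value was 1.34 without the control library of pool 2, 0.19 without that of pool 3, 1.04 without the agonist library of pool 3 and -0.02 without that of pool 2, each of which sets 2 libraries of 1 group against a single pool of the other.

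Ptgs1, the constitutive cyclooxygenase (ENSMUSG00000047250.13, chromosome 2, 36230426 to 36252272, plus strand), had 7.86 and 10.3 CPM in the agonist wells of pools 2 and 3, against 10.9 and 6.18 CPM in the control wells. It was lower with agonist in pool 2 (log2 ratio -0.47, counting interval -0.67 to -0.28) and higher in pool 3 (0.73, 0.53 to 0.93), and neither counting interval reached 0. The fit over both pools gave 0.09 on the log2 scale with an SE of 0.43 (adjusted p = 0.9999, edgeR), and 0.55 without the control library of pool 2. The sign turned without the control library (-0.20) or the agonist library (-0.12) of pool 3. Per kb, Ptgs2 stood above Ptgs1 by 10.1 and 3.63 times in the agonist wells of pools 2 and 3, against 4.98 and 3.74 times in the control wells. The ratio was thus highest in the agonist well of pool 2, while in pool 3 it differed little between the wells.

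Ptges, the inducible prostaglandin E synthase (ENSMUSG00000050737.13, chromosome 2, 30889471 to 30929863, minus strand), had 208 and 70 reads in the agonist wells of pools 2 and 3, against 171 and 86 reads in the control wells. Its levels of 3.998 and 1.23 CPM with agonist and 3.93 and 1.65 CPM in the control sorted by pool and not by group. Fitted over both pools, Ptges differed by -0.09 on the log2 scale, with a 95% interval of -1.89 to 1.71, an SE of 0.74 and an edgeR adjusted p of 0.9999, so differences inside that interval could not be told from 0. Its sign turned without the control library of pool 2 (0.66) or the agonist library of pool 3 (0.52).

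The prostaglandin E2 receptor genes differed between the wells of pool 2 in opposite directions. Ptger4, the EP4 receptor (ENSMUSG00000039942.15, chromosome 15, 5206661 to 5244187, minus strand), had 25.1 and 15.1 CPM in the agonist wells of pools 2 and 3, against 15.3 and 15.0 CPM in the control wells. The agonist well of pool 2 was the high one, and the other libraries lay close together. The log2 ratio was 0.72 in pool 2 (counting interval 0.58 to 0.85) and 0.0078 in pool 3 (-0.13 to 0.15). The fit gave Ptger4 0.41 on the log2 scale, with a 95% interval of -0.48 to 1.30, an SE of 0.37 and an edgeR adjusted p of 0.9999, and 0.03 without that library. Ptger2, the EP2 receptor (ENSMUSG00000037759.6, chromosome 14, 44988195 to 45003820, plus strand), had 4.17 and 4.83 CPM with agonist, against 7.67 and 3.48 CPM in the control. Here the control well of pool 2 was the high one. The log2 ratio was -0.88 in pool 2 (counting interval -1.13 to -0.63) and 0.47 in pool 3 (0.20 to 0.75), and the fit gave -0.31 (SE 0.51, edgeR adjusted p = 0.9999), which turned to 0.37 without the control library of pool 2. Per kb, Ptger4 exceeded Ptger2 by 4.71 and 2.44 times with agonist and by 1.56 and 3.37 times in the control. Both genes share exon bases with genes on the opposite strand (1015 with Gm15937 for Ptger4, 246 with Gm17173 for Ptger2), and the library kit does not mark strand, so reads there cannot be assigned with certainty. The same limit holds for Alox5ap (189 bases shared with Gm19719) and Ptgs1 (148 with Gm43621). Reads in several genes were not counted, so the levels per kb of such genes, and ratios between them, can be off.

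Lta4h and Alox5ap, the well-read genes of leukotriene synthesis, lay close between the groups. Lta4h (ENSMUSG00000015889.8, chromosome 10, 93453411 to 93484875, plus strand) had 182 and 152 CPM in the agonist wells of pools 2 and 3, against 226 and 151 CPM in the control wells. In pool 3 its wells differed by a log2 ratio of 0.01 (counting interval -0.03 to 0.06). Over both pools the Lta4h difference was -0.18 on the log2 scale, with a 95% interval of -0.92 to 0.57, an SE of 0.31 and an edgeR adjusted p of 0.9999, and 0.15 without the control library of pool 2. Alox5ap, which encodes the 5-lipoxygenase-activating protein FLAP (ENSMUSG00000060063.9, chromosome 5, 149264767 to 149288153, plus strand), had 11.7 and 10.6 CPM in the agonist wells of pools 2 and 3, against 13.6 and 8.73 CPM in the control wells. The agonist wells lay between the control wells, and Alox5ap averaged 11.2 ± 0.763 CPM with agonist and 11.2 ± 3.47 CPM in the control (SD, n = 2 each). The fit gave Alox5ap -0.0039 on the log2 scale, with a 95% interval of -0.92 to 0.91, an SE of 0.38 and an edgeR adjusted p of 0.9999. Without the control library of pool 2 the Alox5ap value was 0.35, and without that of pool 3 it was -0.21. The intervals of both genes still allow changes of close to 1 log2 unit.

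Alox5, the 5-lipoxygenase (ENSMUSG00000025701.12, chromosome 6, 116410077 to 116461178, minus strand), was read in small numbers and was lower with agonist in both pools. It had 0 and 11 reads in the agonist wells of pools 2 and 3, against 26 and 48 reads in the control wells. Scaled, the levels were 0 and 0.194 CPM with agonist and 0.597 and 0.918 CPM in the control, and the groups did not overlap, which 13.5% of all tested genes also showed in this direction. In pool 2, where the agonist well had 0 reads, the exact counting interval of the log2 ratio ended at -2.97, and in pool 3 the log2 ratio was -2.24 (counting interval -3.34 to -1.28). The fitted log2 fold change was -2.92 (SE 1.51, 95% interval -6.59 to 0.74, unadjusted p = 0.0997, edgeR adjusted p = 0.9999), a value that depends on how the 0 is treated and lay between -8.23 and -1.92 when single libraries were left out. In the blocked fit its unadjusted p was 0.0340 (edgeR adjusted p = 0.9998). Alox5 passed the filter only through the control libraries, where it is high.

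Neutrophils and eosinophils are known to express Alox5, and their markers were low in all libraries. The summed level of 6 neutrophil markers was 1.35 and 2.98 CPM in the agonist wells of pools 2 and 3, against 2.07 and 1.95 CPM in the control wells, with Ly6g at 0. The 4 eosinophil markers summed to 3.65 and 4.58 CPM with agonist and 3.83 and 5.51 CPM in the control, with Epx at 0. The 2 basophil markers summed to 0 and 0.159 CPM with agonist and 0.780 and 0.0191 CPM in the control, with Prss34 at 0. Markers of lymphoid cells stood lower with agonist beside Alox5: 4 of 4 B cell and 4 of 4 T cell markers were lower in both pools. The 3 plasma cell markers summed to 73.4 and 43.5 CPM with agonist, against 462 and 265 CPM in the control, with 2 of the 3 lower in both pools and Sdc1 higher. Other types did not fall with agonist in both pools. The 7 mast cell markers other than Kit summed to 18.7 and 3.08 CPM with agonist, against 4.68 and 2.14 CPM in the control, the reverse direction to Alox5. The 8 macrophage markers summed to 535 and 447 CPM with agonist, against 643 and 411 CPM in the control, so the direction differed between the pools. The part of all these cells in the Alox5 values was not tested.

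Alox15, the 12/15-lipoxygenase (ENSMUSG00000018924.6, chromosome 11, 70344152 to 70352031, minus strand), had the highest fitted log2 fold change of the 9 tested genes, and it was not called. It had 118 and 40 reads in the agonist wells of pools 2 and 3, against 16 and 20 reads in the control wells. The levels were 2.27 and 0.705 CPM with agonist and 0.367 and 0.383 CPM in the control, without overlap, as 11.4% of all tested genes in this direction. The control wells were alike, and the agonist well of pool 2 stood well above that of pool 3. The log2 ratio was 2.63 in pool 2 (counting interval 1.87 to 3.48) and 0.88 in pool 3 (0.07 to 1.73), and 2.15% and 7.24% of tested genes had ratios at least as high. The fitted log2 fold change was 1.98 (SE 0.82, 95% interval -0.0057 to 3.96, unadjusted p = 0.0505, edgeR adjusted p = 0.9999), and 0.94 without the agonist library of pool 2.

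Alox15 is known from resident macrophages and eosinophils of mice, and mast cells belong to the types that make many of these lipids. The mast cell markers other than Kit (7 genes) were also highest in the agonist well of pool 2. They summed to 18.7 and 3.08 CPM in the agonist wells of pools 2 and 3, against 4.68 and 2.14 CPM in the control wells, and 2 of the 7 were higher in both pools. Among them Mcpt4, a mast cell protease, had 189 and 38 reads with agonist, against 0 and 0 in the control, and Cpa3, a mast cell carboxypeptidase, had 159 and 22 reads, against 24 and 30. Kit was read at 438 to 831 CPM over the libraries, a level that the other mast cell markers did not share. The 8 macrophage markers summed to 535 and 447 CPM with agonist, against 643 and 411 CPM in the control. Of the 8, 3 were lower with agonist in both pools (C1qc, Cd163 and Fcgr1) and 1 was higher in both, Mertk, a phagocytic receptor, with 8.48 and 3.14 CPM against 1.88 and 2.12 CPM. The eosinophil markers, at 3.65 and 4.58 CPM with agonist against 3.83 and 5.51 CPM in the control, were lowest in the agonist well of pool 2. The part of these cells in the Alox15 values was not tested.

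Ltb4r1, the leukotriene B4 receptor BLT1 (ENSMUSG00000046908.5, chromosome 14, 55765962 to 55768494, plus strand), had 16 and 2 reads in the agonist wells of pools 2 and 3, against 8 and 5 reads in the control wells. These are 0.308 and 0.0352 CPM with agonist and 0.184 and 0.0957 CPM in the control. The counting intervals of the log2 ratio, -0.56 to 2.18 in pool 2 and -4.83 to 1.17 in pool 3, both held 0, so a difference was not detectable at this depth.

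**Figure D3:**
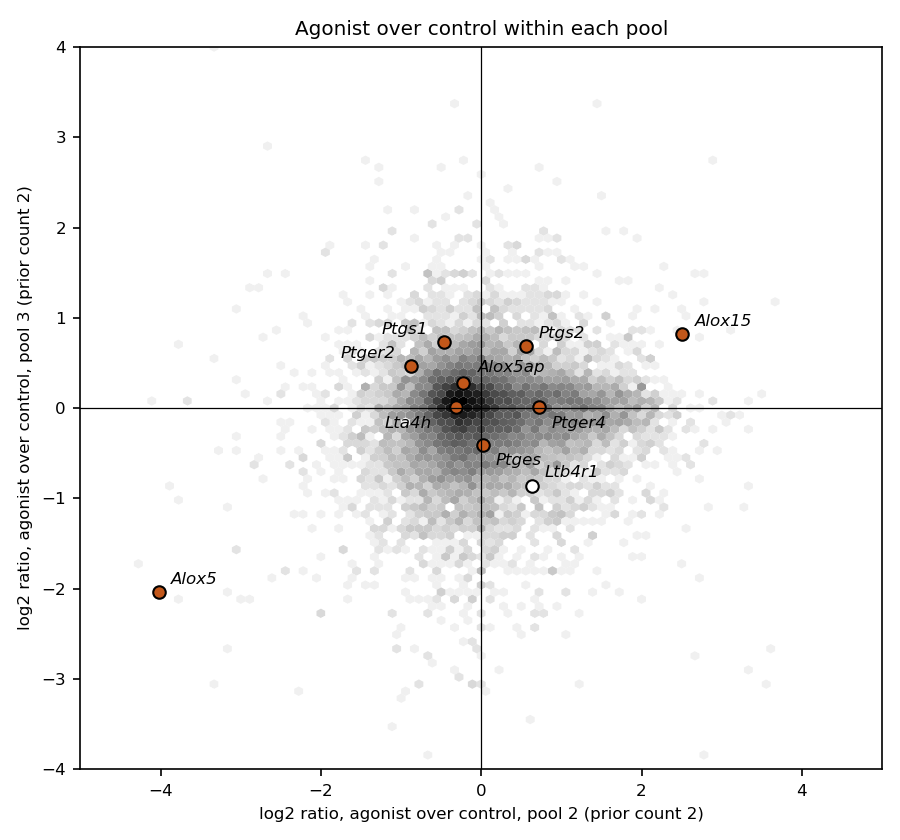
Log2 ratio of agonist over control in pool 2 (x axis) and pool 3 (y axis), from log2 CPM with a prior count of 2; grey shows the density of the 18297 tested genes on a log scale, filled points the 9 tested genes and the open point Ltb4r1. Alox15 lies far right and above 0, Alox5 far left and below 0, and the other genes lie nearer the centre of the cloud.

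The same genes were compared between the pools, pool 3 against pool 2. With group as a covariate, edgeR called 0.394% of the 18297 genes between pool 3 and pool 2, and 0 of the 9 tested. At an unadjusted p under 0.05, where 13.9% of all genes lay, there were 2 of 9, Ptgs2 and Ptges, both lower in pool 3 (7.70% of all genes were lower at that p). Both libraries of pool 3 lay below both of pool 2 in 5 of 9 (Ptgs2, Ptges, Ptger4, Alox5ap and Lta4h), beside 25.2% of all tested genes, and the reverse held in 0 of 9, beside 24.0%. The pools were thus apart in 5 of 9 genes, beside 49.2% of all tested genes. The median log2 difference of the 9 was -0.42, beside -0.0060 over all tested genes. With 1 pool on either side, these p-values measure only how far wells of the same pool spread.

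Ptgs2 had 43.9 and 27.3 CPM in the agonist and control wells of pool 3, against 94.0 and 64.0 CPM in those of pool 2. The wells of pool 3 were the low ones with and without agonist, by a log2 difference of -1.10 between the agonist wells and -1.23 between the control wells. The fit gave -1.16 (SE 0.25, 95% interval -1.74 to -0.59, unadjusted p = 0.00132), and its edgeR adjusted p of 0.0881 missed the threshold. DESeq2 (adjusted p = 0.00343), limma-voom (0.0489) and edgeR without a filter on low counts (0.0240) called it. Ptges had 1.23 and 1.65 CPM in pool 3, against 3.998 and 3.93 CPM in pool 2, with a log2 difference of -1.47 (SE 0.48, 95% interval -2.55 to -0.39, unadjusted p = 0.0130, edgeR adjusted p = 0.207). No alternative called Ptges, with adjusted p values of 0.172 to 0.274. Other transcripts differed between the pools as well. Itgax was lower in pool 3, with a log2 difference of -0.87 (edgeR adjusted p = 0.135). The other defining markers of conventional dendritic cells were higher there: Flt3 by 0.55, Zbtb46 by 0.26 and Dpp4 by 0.43 (edgeR adjusted p of 0.402 to 0.713). T cell markers summed to 96.5 and 143 CPM in pool 3 against 233 and 338 CPM in pool 2. B cell markers summed to 262 and 295 CPM against 526 and 583 CPM. The part of these cells in the pool difference was not tested. The other 7 tested genes had log2 differences from -0.86 (Alox15) to 2.00 (Alox5), with edgeR adjusted p values of 0.479 to 0.881. Single wells decided some of these values: without a library of the agonist group the Alox5 difference was 0.62 and that of Alox15 0.059, and without the control library of pool 2 they were 6.40 and -1.68.

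**Figure D4:**
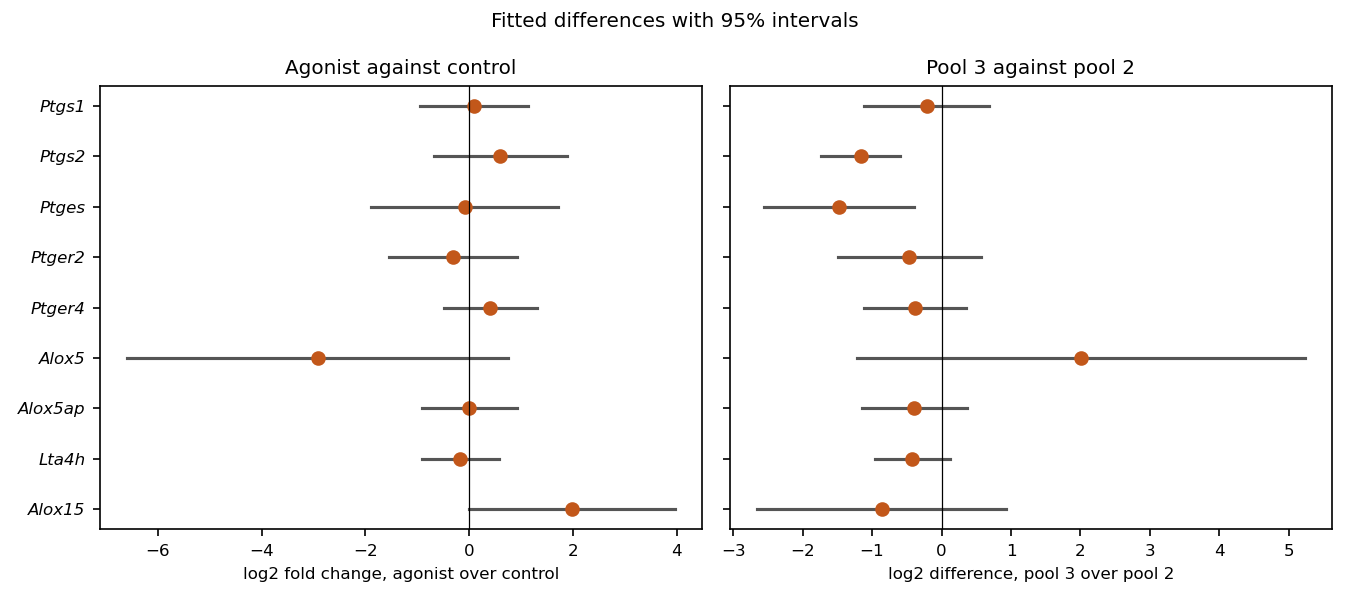
Fitted log2 differences (points) with 95% intervals (lines) of the 9 tested genes, for agonist over control (left) and for pool 3 over pool 2 with group as a covariate (right). On the left every interval holds 0, and on the right those of Ptgs2 and Ptges do not.

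Other genes of the pathways were taken from a list of 53 symbols with 54 rows (Dpep2 has 2), of which 40 rows passed the filter and 6 had no read in any library. Of the 40, 0 were called between agonist and control and 0 between the pools in edgeR, with 1 and 10 at an unadjusted p under 0.05, beside 1.58% and 13.9% of all tested genes. Their median log2 difference was -0.01 for the agonist, beside -0.05 over all tested genes, and -0.22 for pool 3 over pool 2, beside -0.0060. Per kb, the highest genes of their roles were Pla2g2d, a secreted phospholipase A2 (74.0 CPM per kb), Abcc1, an exporter of leukotriene C4 (29.9), Ptges3, a cytosolic prostaglandin E synthase and co-chaperone (22.2), Cyp4f18, which inactivates leukotriene B4 (7.60), Hpgd, which inactivates prostaglandins (4.38), Ptgir, the prostacyclin receptor (2.51), and Alox12, the platelet-type lipoxygenase (0.0882). The log2 fold changes of these 7 genes for the agonist ran from -0.18 (Cyp4f18) to 1.39 (Alox12), and each had an edgeR adjusted p of 0.9999. Hpgd and Ptgr2, another prostaglandin-inactivating enzyme (3.99), had overlapping ranges, and Ptgr2 was the higher (7.47 against 4.38) with the longest transcript as length. Alox12 was read 4 to 45 times a library, and its value was 2.73 without the control library of pool 2, 0.75 without that of pool 3 and 0.33 without the agonist library of pool 3. The 1 gene at an unadjusted p under 0.05 was Aloxe3, an epidermal lipoxygenase, with 22 and 22 reads in the agonist wells of pools 2 and 3, against 0 and 2 reads in the control wells. Aloxe3 is named here after its values were seen, and its unadjusted p was 0.0276 (edgeR adjusted p = 0.9999). It passed the filter only through the agonist libraries, where it is high.

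Pla2g4a and Hpgds are named for their roles, after their values were seen. Both are among the other pathway genes with an unadjusted p under 0.05 between the pools in edgeR. Of these, 6 were lower in pool 3 and 4 higher, beside 1409 lower and 1126 higher of all 18297 tested genes. The 4 higher ones were Cysltr1 (log2 difference 1.49), Ptgr1 (1.19), Ptgis (1.33) and Slco2a1 (3.57), with edgeR adjusted p values of 0.222 to 0.356. Pla2g4a, the cytosolic phospholipase A2 that frees arachidonic acid, had 16.7 and 9.29 CPM in the agonist wells of pools 2 and 3, against 16.4 and 7.65 CPM in the control wells. Like Ptgs2 it was low in both wells of pool 3, with a log2 difference of -0.97 (SE 0.32, edgeR adjusted p = 0.220). Hpgds, the haematopoietic prostaglandin D synthase, had 20.7 and 15.2 CPM in pool 3, against 37.7 and 46.6 CPM in pool 2. Its log2 difference of -1.24 (SE 0.31) had an edgeR adjusted p of 0.113, and was called by DESeq2 (0.0113) and by edgeR without a filter (0.0364).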

How the data were processed

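RNA of CD11c+ MLN cells was sequenced in 2 agonist and 2 control libraries made with the SMART-seq v4 kit, per the labels' protocols. The deposited files hold whole-number read counts per gene with no sign of scaling. STAR 2.7, HTSeq 0.11.1 and the build GRCm38 (mm10) come from the submitters' processing notes, and no source used here states the strand setting. Reads outside genes made up 15.96% to 19.99% of a library, reads in several genes 5.77% to 6.50% and reads with several alignments 6.54% to 6.98%, and none of them were counted for a gene. Identifiers matched GENCODE M21, which gave coordinates and merged exon lengths. Promoters came from RefSeq.

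Counts were analysed in edgeR 4.0.16 (R 4.3.3) with filterByExpr (minimum count 10), TMM factors of 0.947 to 1.05, the quasi-likelihood F test on group alone and Benjamini-Hochberg adjustment over 18297 genes at 0.05. The pools were compared with group as a covariate. SEs and 95% intervals were derived from the F statistic. Alternatives were DESeq2 1.42.0, limma-voom 3.58.1, other scalings and filters, a block and leaving out each library. Within-pool ratios carry exact binomial intervals from SciPy 1.17.1, which cover counting error only, since reads are not independent molecules. Fits were checked on simulated data, with changes placed in well-read genes only and no pool difference beside the agonist one. That check does not cover genes read as little as Alox5, Alox15 and Ltb4r1. The protocol divides the cells of a pool between wells, deviations from the group mean correlated within numbers (r = 0.382 over 18297 genes), and same-numbered libraries shared Xist or Ddx3y reads, so the numbers pair the libraries.

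The genes and lists were chosen with earlier results of these data known. All 10 genes are named. Of the other pathway genes, the highest per kb of each role and any called were eligible, and others were chosen after their values were seen.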

Additional observations from a re-analysis of the deposited data

How the results depend on the processing

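No gene of the 10, and none of the other pathway genes, was called between agonist and control under any of 12 alternatives (adjusted p of 0.9992 or more for the 9 tested genes). The count over all genes, 0, became 9 without a filter, 7 in DESeq2, 1 with the pool as a block (Igha), 6 in DESeq2 with the block, and 0 to 2 when a library was left out. The block changed no call among the 9 tested genes or the other pathway genes. Between the pools, the 72 calls became 5 with total counts only, 5 with a stricter filter, 5 without group as a covariate, 600 without a filter, 271 in limma-voom and 706 in DESeq2. In each of these last 3 settings 1 of the 9 genes, Ptgs2, was called, and Hpgds was the 1 other pathway gene called without a filter and in DESeq2. Leaving out a library of that comparison leaves no residual degrees of freedom, so no calls were made there. The values without 1 library ran from -0.82 to 0.39 for Ptgs1, -1.14 to 0.21 for Ptger2, -1.68 to 0.059 for Alox15, 0.62 to 6.40 for Alox5, -2.04 to 1.66 for Alox12 and -0.17 to 0.32 for Ptges3.

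Small log2 values changed sign. Alox5ap (agonist over control) was 0.026 with DESeq2 size factors, 0.064 with the stricter filter, 0.040 in limma-voom, 0.026 in DESeq2, 0.029 with the block and 0.058 in DESeq2 with the block. Hpgds was 0.091 in limma-voom, 0.070 with the block and 0.10 in DESeq2 with the block, where Hpgd was 0.0046. When single libraries were left out, the range was -0.20 to 0.55 for Ptgs1, -0.021 to 1.34 for Ptgs2, -1.14 to 0.66 for Ptges, -0.70 to 0.37 for Ptger2, -0.21 to 0.35 for Alox5ap, -0.36 to 0.15 for Lta4h, -0.44 to 0.38 for Pla2g2d, -0.14 to 0.23 for Abcc1, -0.53 to 0.11 for Cyp4f18, -0.39 to 0.42 for Hpgd, -0.014 to 0.39 for Ptges3, 0.33 to 2.73 for Alox12, -0.33 to 0.76 for Pla2g4a and -0.59 to 0.94 for Hpgds. Ptger4, Alox5 and Alox15 kept their sign under all 12. Between the pools, Ptges3 turned to -0.0085 with total counts only and Alox12 to 0.57 in limma-voom and 0.61 without the covariate. The cause of these changes was not tested. With the longest transcript as length, Lta4h was at 55.1 CPM per kb and the order changed only for Alox5 (0.120) and Ltb4r1 (0.112). Low counts limit Alox5, Alox15 and Ltb4r1 most.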
